A study of Mus musculus with 5 samples.

Results

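The nuclear genes that encode the later steps of mitochondrial respiration were followed in mouse haematopoietic stem cells. These are succinate dehydrogenase (complex II), the cytochrome bc1 complex (complex III), cytochrome c oxidase (complex IV), ATP synthase (complex V) and the electron carrier cytochrome c. Members were taken by gene symbol as the files spell it: Sdha to Sdhd, symbols that begin with Uqcr, Cox4 to Cox8 or Atp5, and Cyc1 and Cycs, without names that carry -ps. Of 33894 genes in the files 51 met this rule, namely 4 of complex II, 9 of complex III, 19 of complex IV, 18 of complex V and Cycs. All 51 were measured in all 5 libraries, and 46 passed the filter on low counts.

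Bulk RNA sequencing was done on bone marrow cells sorted as CD34-Flt3- Lin-ScaI+C-Kithigh, the phenotype of long-term stem cells, with Smart-seq2 libraries from 6K cells each. One group had 3 libraries, labelled dKO, and carried Vav-cre together with floxed alleles of both co-receptor genes, Lrp5 fl/fl and Lrp6 fl/fl. The Vav promoter drives Cre recombinase in blood cells, and Lrp5 and Lrp6 are co-receptors for Wnt ligands. The other group had 2 WT libraries, for which the labels name no Cre transgene, and all mice were 8 weeks old. Cre and loss of the receptors therefore cannot be told apart, and since no label ties a library to its own mouse, p-values measure the spread between these samples, which may be technical.

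Library totals ran from 16028512 to 26869348 counts in the libraries labelled dKO and from 26242672 to 28027458 in WT. Lrp6 had 790, 260 and 767 counts in the libraries labelled dKO, against 660 and 232 in WT, and Lrp5 had 37, 2 and 71 counts in the libraries labelled dKO, against 7 and 32 in WT. Neither targeted gene was lower. A count over a whole gene does not test for a deleted exon, and every direction given here follows the labels. All 8 stem cell markers were detected, with a summed level of 1733 to 1906 CPM (counts divided by library size and scaled by TMM factors) in the libraries labelled dKO and 912 to 1319 CPM in WT. Of these markers 7 had higher values and 1 lower, with a median log2 fold change of 0.72, and 0 had an adjusted p under 0.05 by edgeR. For 4 of the 8 every library labelled dKO lay above both WT libraries, against 13.7% of all tested genes. Only 1 of the 8 was higher in WT replicate 2 than in WT replicate 1. Replicate 2 of the libraries labelled dKO stood apart, correlating with the other libraries at 0.851 or less across genes, and detected 12894 genes against at least 14750 elsewhere. Without it 41 of 46 respiratory genes still had lower values, with a median log2 fold change of -0.42 (all genes 0.05). The share of counts on mitochondrially encoded genes was 1.42% to 2.47% in the libraries labelled dKO and 1.77% to 2.14% in WT.

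Complexes II, III and IV pass electrons from succinate and coenzyme Q to oxygen, with cytochrome c as the mobile carrier between III and IV, and complex V uses the resulting proton gradient to make ATP. Complex II is wholly encoded in the nucleus, whereas III, IV and V combine nuclear subunits with a few made inside the mitochondrion. Long-term haematopoietic stem cells are known for low respiration and reliance on glycolysis, and they raise oxidative phosphorylation as they begin to divide and differentiate. Cytochrome c has a second role, since its release into the cytosol starts the caspase cascade.

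Most members had lower values in the libraries labelled dKO. Of the 46 tested members 42 had a negative log2 fold change, as did 47.8% of all 13696 tested genes, and 4 had a positive one, as did 52.2% of all. The median was -0.50 for the members and 0.04 for all genes. Together the 51 genes held 1.23%, 1.19% and 1.27% of all counts in replicates 1, 2 and 3 labelled dKO, against 1.38% and 1.67% in WT replicates 1 and 2. The lower share was seen in every library labelled dKO. In bulk RNA, fewer cells of a type and less RNA per cell cannot be told apart.

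No member passed the test. With edgeR (quasi-likelihood fit, p-values adjusted over all tested genes by Benjamini-Hochberg) 0 of 46 members were called, as were 0% of all genes in either direction, and the smallest adjusted p of a member was 0.430. An unadjusted p under 0.05 was found for 19 members, all lower, against 5.19% of all genes on that side and 4.94% on the higher side. DESeq2 called 2 members, Cycs and Atp5g1, both lower, where it called 0.664% of all genes lower and 1.12% higher, and limma-voom called 0. Every library labelled dKO lay below both WT libraries for 27 of the 46 members, where this held for 15.7% of all tested genes. None of the 46 lay above both WT libraries in every library labelled dKO, against 13.7% of all tested genes.

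**Figure D1:**
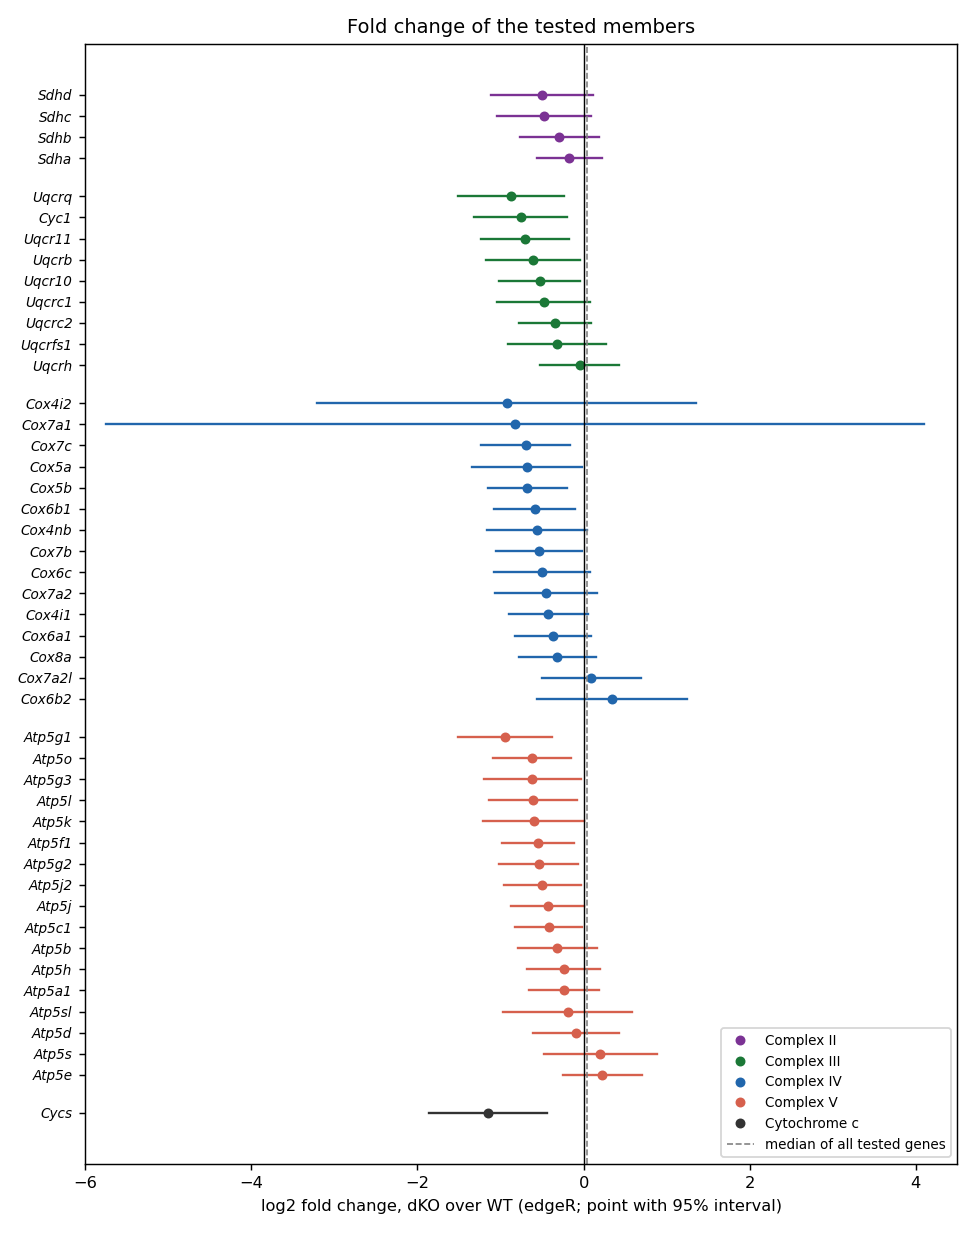
Log2 fold change of each tested member, libraries labelled dKO over WT, with its 95% interval from edgeR; colours mark the complexes and the dashed line is the median of all 13696 tested genes. Points lie left of 0 for 42 of 46 members, and the wide intervals of Cox4i2 and Cox7a1 belong to genes with few counts.

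The 2 WT libraries differed from each other in the same genes. WT replicate 2 was higher than WT replicate 1 for 42 of 46 members, against 48.7% of all tested genes, with a median log2 ratio of 0.37. The mean of the libraries labelled dKO was below WT replicate 1, the lower of the pair, for 39 of 46 members, against 47.2% of all tested genes. Without WT replicate 2, the tested members had a median of -0.32 with 39 of 46 lower (all genes 0.07 and 45.7% lower), and 0 members had an unadjusted p under 0.05, against 0.930% of all genes. Without WT replicate 1 the median was -0.69, and 29 of 47 tested members had an unadjusted p under 0.05, all lower, against 5.17% of all genes.

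WT replicate 2 also stood apart in markers of granulocyte progenitors. All 7 markers of that list were detected, and their sum was 12272, 15740 and 11080 CPM in replicates 1, 2 and 3 labelled dKO, against 6462 and 42239 CPM in WT replicates 1 and 2. WT replicate 1 had the smallest sum and WT replicate 2 the largest, with the libraries labelled dKO between them. The 6 markers of cycling cells summed to 732, 1106 and 949 CPM in the libraries labelled dKO, against 1065 and 1611 CPM in WT. Their order thus partly follows that of the respiratory genes. All 6 had lower values, with a median log2 fold change of -0.55, and all 6 were higher in WT replicate 2 than in WT replicate 1. For 3 of the 6 every library labelled dKO lay below both WT libraries, against 15.7% of all tested genes. Markers of mast cells and basophils summed to 302, 941 and 430 CPM in the libraries labelled dKO, against 186 and 399 CPM in WT. Those of B cells summed to 105, 190 and 265 CPM in the libraries labelled dKO, against 141 and 99.7 CPM in WT. In each of these lists 4 of 5 markers had higher values and 1 lower, and edgeR called none of them. For 3 of 5 in each list every library labelled dKO lay above both WT libraries, against 13.7% of all tested genes. In the B cell list these were Ebf1, Cd79a and Vpreb1, while Cd79b, with the largest CPM, overlapped (log2 fold change -0.08). The 3 megakaryocyte markers summed to 114, 107 and 77.0 CPM in the libraries labelled dKO, against 61.0 and 56.7 CPM in WT, and these sums did not overlap. Flt3 and Cd34, which the sort selects against, together had 1283, 1267 and 1444 CPM in the libraries labelled dKO, against 1449 and 877 CPM in WT. Taken singly, 1 of the 2 had a log2 fold change of 0.02 and the other of 0.91, and edgeR called neither. For 1 of the 2 every library labelled dKO lay above both WT libraries, against 13.7% of all tested genes. Erythroid markers summed to 86.3 to 116 CPM in the libraries labelled dKO and 88.8 to 94.7 CPM in WT. Of the T cell markers Cd3e was at 0 in every library, Cd3g had 0, 178 and 4 counts in the libraries labelled dKO, against 21 and 1 in WT, and Cd3d had 6, 0 and 1 counts in the libraries labelled dKO, against 25 and 0 in WT. The part of these cell types, of stem cells or of cycling cells in the result was not tested.

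**Figure D2:**
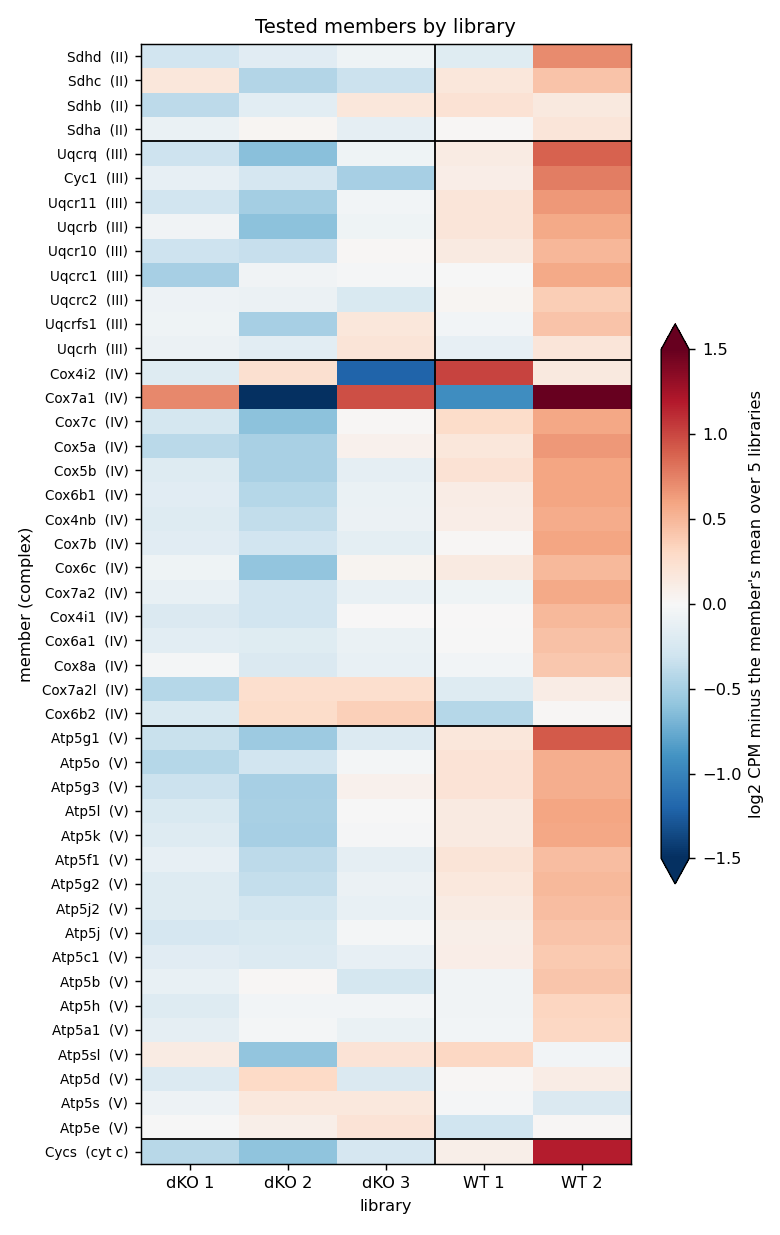
Log2 CPM of each tested member minus its own mean over the 5 libraries, with the 3 libraries labelled dKO on the left and the 2 WT libraries on the right. Averaged over the 46 tested members this value was -0.17, -0.32 and -0.05 in replicates 1, 2 and 3 labelled dKO and 0.06 and 0.48 in WT replicates 1 and 2, so the strongest colours are in WT replicate 2.

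Promoters are shown for the member of each complex with the smallest p among those with an entry in the RefSeq promoter table, which are Cycs, Sdhd, Uqcr11, Cox5b and Atp5g1, and for Atp5e, which did not go with its complex. The table held 38 of the 51 members. Each sequence is the 250 bases before the annotated start, 5′ to 3′ on the gene's strand, from RefSeq on GRCm38.p6, a later build than the mm9 named for the files. Capitals mark letters that match motifs of factors known to control nuclear respiratory genes.
Cycs (chr6:50566570-50566819, minus strand): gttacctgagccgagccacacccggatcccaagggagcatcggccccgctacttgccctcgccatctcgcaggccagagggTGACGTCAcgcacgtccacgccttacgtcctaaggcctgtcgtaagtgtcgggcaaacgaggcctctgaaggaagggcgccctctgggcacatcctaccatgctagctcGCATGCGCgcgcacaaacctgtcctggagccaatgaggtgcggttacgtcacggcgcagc
Sdhd (chr9:50603850-50604099, minus strand): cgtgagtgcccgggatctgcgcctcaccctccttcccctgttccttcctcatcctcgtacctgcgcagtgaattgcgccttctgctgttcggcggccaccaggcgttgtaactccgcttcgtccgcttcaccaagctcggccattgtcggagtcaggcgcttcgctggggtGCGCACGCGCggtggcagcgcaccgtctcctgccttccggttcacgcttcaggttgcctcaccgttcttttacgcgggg
Uqcr11 (chr10:80406822-80407071, minus strand): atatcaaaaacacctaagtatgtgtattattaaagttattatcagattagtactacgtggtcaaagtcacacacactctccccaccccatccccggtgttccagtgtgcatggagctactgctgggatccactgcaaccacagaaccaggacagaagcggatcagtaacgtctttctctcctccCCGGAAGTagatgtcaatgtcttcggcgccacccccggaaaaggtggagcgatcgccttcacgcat
Cox5b (chr1:36691237-36691486, plus strand): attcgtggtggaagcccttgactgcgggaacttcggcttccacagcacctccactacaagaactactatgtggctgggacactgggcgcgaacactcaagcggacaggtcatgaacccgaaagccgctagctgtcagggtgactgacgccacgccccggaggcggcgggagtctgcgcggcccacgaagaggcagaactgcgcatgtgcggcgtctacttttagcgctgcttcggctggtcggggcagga
Atp5g1 (chr11:96075632-96075881, minus strand): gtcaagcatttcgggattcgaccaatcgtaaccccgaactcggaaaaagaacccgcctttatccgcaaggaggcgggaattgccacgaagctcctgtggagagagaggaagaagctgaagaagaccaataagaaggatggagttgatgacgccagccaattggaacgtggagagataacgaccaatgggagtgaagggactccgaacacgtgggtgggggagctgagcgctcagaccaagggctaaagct
Atp5e (chr2:174464102-174464351, minus strand): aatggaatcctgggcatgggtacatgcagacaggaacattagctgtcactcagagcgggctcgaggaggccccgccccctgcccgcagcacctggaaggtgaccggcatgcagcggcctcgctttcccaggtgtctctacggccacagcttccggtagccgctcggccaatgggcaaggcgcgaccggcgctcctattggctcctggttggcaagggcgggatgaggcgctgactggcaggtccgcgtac

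A motif of nuclear respiratory factor 1 (NRF1), spelled GCGCA, any base, then GCGC, was searched on both strands, as were all others, and stood in the promoters of 7 of the 38 matched members (18.4%), against 4.23% of the 27025 genes in the table. Those promoters were of Sdha, Sdhd, Cox6a1, Atp5c1, Atp5g2, Atp5h and Atp5k, and that of Sdhd began 79 bases before its start. CCGGAAGT, bound by ETS factors such as GABPA, stood before 3 of 38 members (7.89%) against 3.23% of all genes, in Uqcr11, Uqcrh and Atp5h. AAGATGGC, a YY1 motif, stood before 2 of 38 (5.26%) against 1.83%, in Atp5j and Atp5sl. After the Cycs promoter had been read, the CREB motif TGACGTCA and a shorter NRF1 core, GCATGCGC, which overlaps the longer motif, were added. The first stood before Cycs and Uqcrfs1 (5.26% against 1.77% of all genes) and the second before 6 of 38 members, Cycs among them (15.8% against 2.56%). In Cycs they began 169 and 60 bases before the start. None of these letters is in the windows of Cox5b, Atp5g1 or Atp5e. The matches are a description of sequence and were not set against the fold changes.

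Cytochrome c had the lowest log2 fold change of the 46 tested members. Cycs, the somatic cytochrome c, measured 304, 266 and 338 CPM in replicates 1, 2 and 3 labelled dKO, against 429 and 915 CPM in WT replicates 1 and 2. The groups did not overlap, and WT replicate 2 held more than any other library. The log2 fold change was -1.15 (SE 0.30, adjusted p = 0.430 by edgeR), and -0.51 without WT replicate 2. DESeq2 gave the same change an adjusted p of 0.0336. Per length, Cycs stood at 197, 176 and 199 TPM in the libraries labelled dKO, against 247 and 446 TPM in WT. Relative to Cyc1, the cytochrome c1 that hands it electrons, the TPM ratio was 0.606, 0.608 and 0.883 in the libraries labelled dKO and 0.718 and 0.944 in WT, which overlap. A Cycs transcript matches Gm10053 at 99.9% identity over 946 bases, and the 4 similar genes in the files together held 0.156% as many counts as Cycs.

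Complex II oxidises succinate to fumarate in the tricarboxylic acid cycle and delivers the electrons to coenzyme Q. All 4 of its genes had lower values, with a median log2 fold change of -0.38, but for none were the groups apart. Sdhd, a membrane anchor, measured 280, 305 and 328 CPM in the libraries labelled dKO, against 302 and 560 CPM in WT, and WT replicate 1 lay among the libraries labelled dKO. Its log2 fold change of -0.50 (SE 0.26, adjusted p = 0.568 by edgeR) was 0.0038 without WT replicate 2. Sdhc, the other anchor, measured 177, 115 and 125 CPM in the libraries labelled dKO, against 176 and 211 CPM in WT (log2 fold change -0.48, SE 0.24, adjusted p = 0.555). Sdhb, the iron-sulphur subunit, measured 335, 395 and 492 CPM in the libraries labelled dKO, against 512 and 487 CPM in WT (log2 fold change -0.29, SE 0.21, adjusted p = 0.702). Sdha, the flavoprotein that holds the active site, was nearest to no difference, with 521, 568 and 509 CPM in the libraries labelled dKO, against 565 and 634 CPM in WT (log2 fold change -0.17, SE 0.17, adjusted p = 0.818). On the scale of log2(TPM + 1) that of Sdha was 0.07, and the summed TPM of the complex was 1433, 1540 and 1538 in the libraries labelled dKO and 1600 and 1710 in WT.

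Complex III takes electrons from reduced coenzyme Q and pumps protons through the Q cycle. All 9 members had negative log2 fold changes, with a median of -0.53. For 7 of the 9 the libraries labelled dKO all lay below both WT libraries, against 15.7% of all tested genes. The 3 with the smallest p were Uqcrq, Cyc1 and Uqcr11. Uqcrq, a small supernumerary subunit, measured 168, 135 and 199 CPM in the libraries labelled dKO, against 227 and 385 CPM in WT (log2 fold change -0.87, SE 0.27, adjusted p = 0.436). Cyc1, which carries the haem that reduces cytochrome c, measured 204, 186 and 158 CPM in the libraries labelled dKO, against 238 and 378 CPM in WT (log2 fold change -0.76, SE 0.24, adjusted p = 0.436). Uqcr11, another small subunit, measured 183, 157 and 218 CPM in the libraries labelled dKO, against 253 and 352 CPM in WT (log2 fold change -0.70, SE 0.23, adjusted p = 0.436). The gap to WT replicate 1 was smaller than the gap between the WT libraries for each of them.

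The small subunits Uqcrb and Uqcr10 had values of -0.61 and -0.53 on the log2 fold change scale, and the core proteins Uqcrc1 and Uqcrc2 of -0.48 and -0.35, all 4 with groups that did not overlap in CPM. Uqcrc1 was the most abundant member of the complex, at 1280 ± 193 TPM (SD, n = 3) in the libraries labelled dKO and 1556 ± 277 TPM (SD, n = 2) in WT. Uqcrfs1, the Rieske iron-sulphur protein, had -0.32 and overlapped. Uqcrh, the hinge protein that helps cytochrome c1 meet cytochrome c, went apart from the rest of the complex. It measured 197, 187 and 239 CPM in the libraries labelled dKO, against 191 and 238 CPM in WT (log2 fold change -0.05, SE 0.21, adjusted p = 0.973). In TPM it measured 388, 588 and 412 in the libraries labelled dKO, against 357 and 364 in WT, and on that scale its groups did not overlap and were higher in the libraries labelled dKO. The direction for Uqcrh thus depends on the unit.

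**Figure D3:**
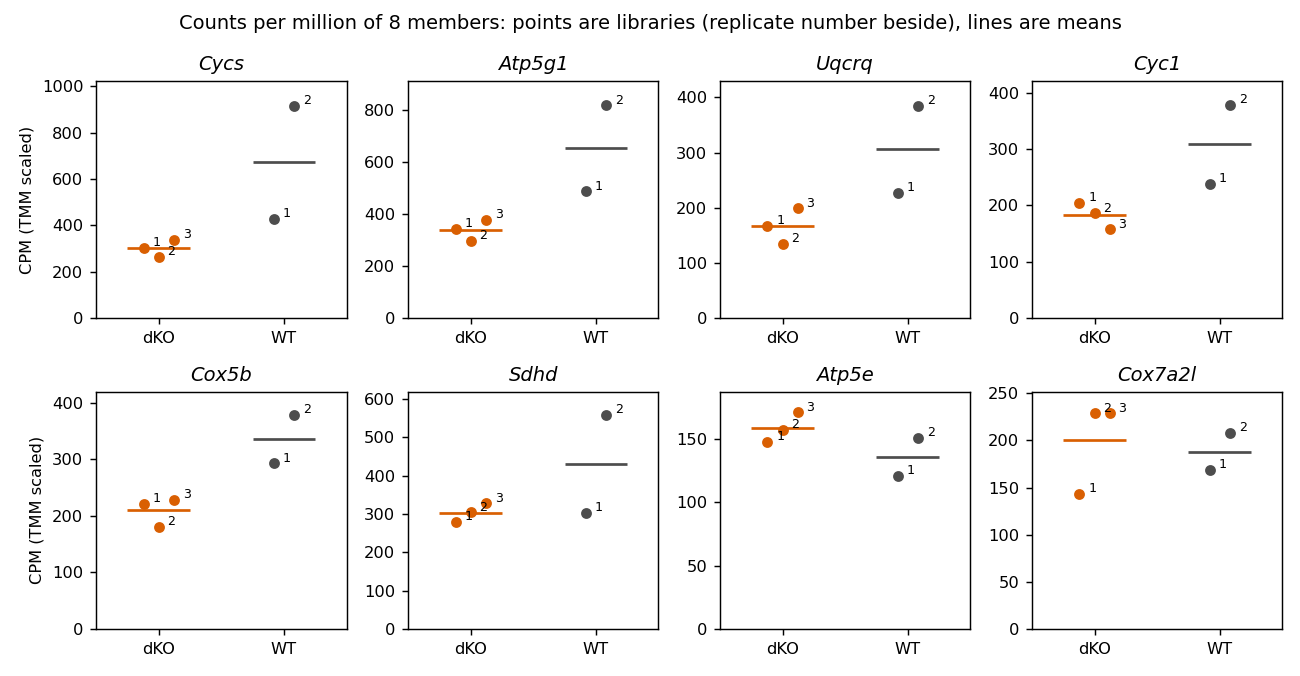
CPM of 8 members in each library, with libraries labelled dKO left and WT right in each panel; points carry their replicate number and lines are group means. Cycs, Atp5g1, Uqcrq, Cyc1 and Cox5b show groups that do not overlap with WT replicate 2 highest, Sdhd overlaps, and Atp5e and Cox7a2l do not have a lower mean in the libraries labelled dKO.

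Complex IV reduces oxygen to water. Of its 19 members 15 were tested and 13 of these had lower values, with a median log2 fold change of -0.53. One of the 19, Cox4nb, meets the rule by name only, since RefSeq and GENCODE call it Emc8, a subunit of the endoplasmic reticulum membrane complex. Without it the median was -0.52. For 9 of the 15 tested members the libraries labelled dKO all lay below both WT libraries, against 15.7% of all tested genes. Without Cox4nb this held for 8 of 14. Cox5b, a zinc-binding subunit, measured 220, 180 and 228 CPM in the libraries labelled dKO, against 292 and 378 CPM in WT (log2 fold change -0.68, SE 0.20, adjusted p = 0.436). Cox7c measured 202, 159 and 247 CPM in the libraries labelled dKO, against 293 and 364 CPM in WT (log2 fold change -0.70, SE 0.23, adjusted p = 0.441). Cox6b1, which faces the intermembrane space where cytochrome c docks, measured 338, 283 and 356 CPM in the libraries labelled dKO, against 409 and 571 CPM in WT (log2 fold change -0.59, SE 0.21, adjusted p = 0.441). In each the WT libraries were both above, and replicate 2 labelled dKO was the lowest.

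Cox5a, Cox7b, Cox6c, Cox6a1 and Cox7a2 followed with log2 fold changes from -0.68 to -0.37 and no overlap in CPM. Cox4i1 and Cox8a had -0.42 and -0.32 and overlapped. Cox4i1 is the ubiquitous isoform of subunit 4 and was among the most abundant members, at 1388 ± 66.9 TPM (SD, n = 3) in the libraries labelled dKO and 1617 ± 215 TPM (SD, n = 2) in WT. Its annotated exons overlap those of Cox4nb on the other strand, and no source used here says that reads were counted by strand, so reads of this pair may be mixed.

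The 2 members of complex IV with positive values were Cox6b2 and Cox7a2l. Cox6b2, known as a testis isoform of subunit 6b, measured 22.1, 31.4 and 33.5 CPM in the libraries labelled dKO, against 19.4 and 26.4 CPM in WT (log2 fold change 0.34, SE 0.39, adjusted p = 0.853). It held 4.47%, 9.01% and 6.85% of the TPM of the Cox6b pair in the libraries labelled dKO, against 3.59% and 3.47% in WT. That share was higher in every library labelled dKO than in either WT library, and both Cox6b1 and Cox6b2 enter it. Cox7a2l, which helps join complexes III and IV into supercomplexes, measured 143, 229 and 229 CPM in the libraries labelled dKO, against 168 and 208 CPM in WT (log2 fold change 0.09, SE 0.26, adjusted p = 0.959). Its sign turned to -0.06 with limma-voom. The pseudogene Gm6969 matches 201 bases of a Cox7a2l transcript at 100% identity and had 1536, 2 and 998 counts in replicates 1, 2 and 3 labelled dKO, against 1588 and 673 in WT. With both added, the level was 200, 229 and 266 CPM in the libraries labelled dKO, against 229 and 235 CPM in WT. Values of Cox7a2l alone are therefore uncertain.

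The remaining, tissue-restricted isoforms of complex IV had few counts, at most 202 in a library. Cox8b and Cox8c had 0 counts in every library, which allows at most 0.1105 to 0.181 CPM in the libraries labelled dKO and 0.114 to 0.120 CPM in WT (3 counts per library, counting error only). Cox6a2, the heart and skeletal muscle isoform, had 0, 0 and 1 counts in the libraries labelled dKO, against 4 and 25 in WT, and Cox7b2 had 3, 0 and 2 against 0 and 0. Cox7a1, another muscle isoform, had 21, 0 and 25 counts in the libraries labelled dKO, against 5 and 46 in WT. Its log2 fold change of -0.83 had an SE of 2.12 and was 1.55 without WT replicate 2. Cox4i2, the isoform known for its induction by low oxygen, measured 3.28, 4.47 and 1.59 CPM in the libraries labelled dKO, against 7.67 and 4.16 CPM in WT (log2 fold change -0.93, SE 0.98, adjusted p = 0.834). It held between 0.280% and 0.923% of the TPM of the Cox4 pair in the libraries labelled dKO and 0.500% to 1.24% in WT.

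Complex V consists of a catalytic F1 head, a peripheral stalk and a membrane part with a rotating ring of subunit c. Of its 18 members 17 were tested and 15 had lower values, with a median log2 fold change of -0.43. For 10 of the 17 the libraries labelled dKO all lay below both WT libraries, against 15.7% of all tested genes. Of the 3 genes for subunit c, Atp5g1 had the lowest log2 fold change of the complex. It measured 342, 297 and 376 CPM in the libraries labelled dKO, against 487 and 817 CPM in WT (log2 fold change -0.95, SE 0.25, adjusted p = 0.430 by edgeR and 0.0382 by DESeq2), and its log2 fold change was -0.53 without WT replicate 2. Atp5g2 measured 133, 118 and 143 CPM in the libraries labelled dKO, against 170 and 212 CPM in WT (log2 fold change -0.54, SE 0.20, adjusted p = 0.456). Atp5g3 measured 82.3, 73.1 and 108 CPM in the libraries labelled dKO, against 119 and 151 CPM in WT (log2 fold change -0.62, SE 0.25, adjusted p = 0.484).

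The groups did not overlap for any of these 3 genes, which are known to encode the same mature protein behind different import sequences. Per length, Atp5g1 stood at 474, 686 and 900 TPM in the libraries labelled dKO, against 1117 and 1158 TPM in WT. It supplied 45.0%, 57.0% and 60.1% of the TPM of the 3 genes in the libraries labelled dKO, against 61.4% and 60.1% in WT, so that replicate 1 labelled dKO had the smallest share and replicate 3 equalled WT replicate 2 within rounding. In CPM Atp5g1 was lowest in replicate 2 labelled dKO (297), not in replicate 1 (342). The order among the libraries labelled dKO thus depends on the unit, and these shares hold for TPM only. Gm10039, a pseudogene that matches an Atp5g1 transcript at 99.8% over 411 bases, had at most 35 counts in a library.

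**Figure D4:**
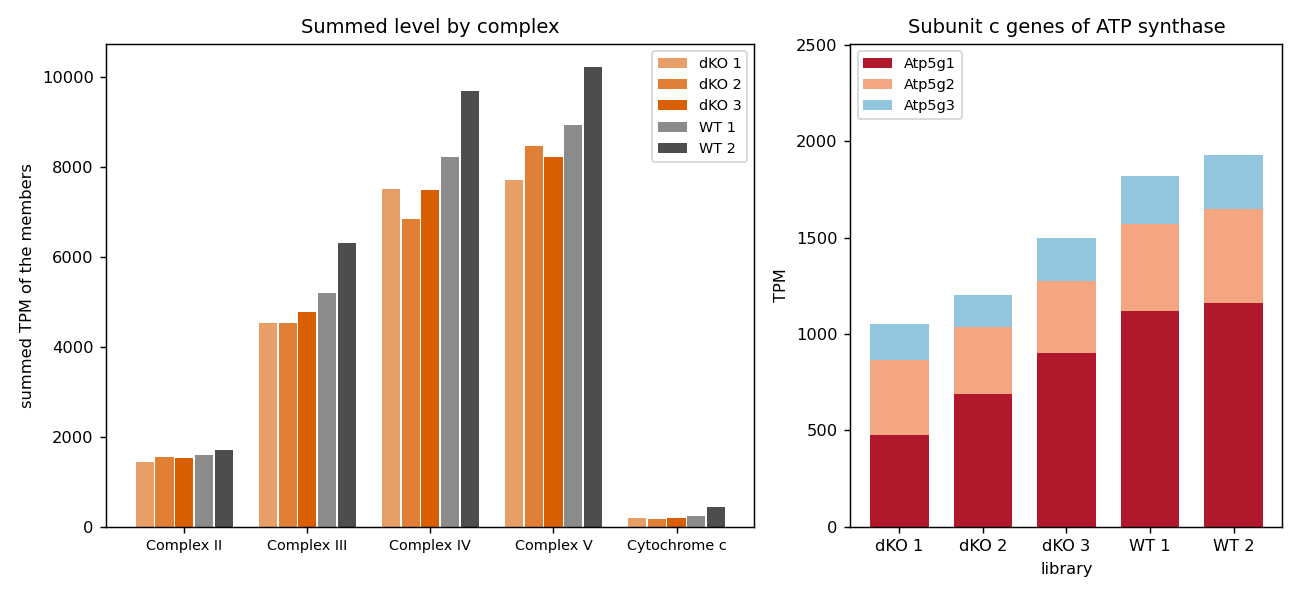
Left, summed TPM of the members of each complex in the 3 libraries labelled dKO and the 2 WT libraries; right, TPM of the 3 subunit c genes stacked by library. In every complex each library labelled dKO is below both WT libraries, by little in complex II, where the sums are 1433 to 1540 in the libraries labelled dKO and 1600 to 1710 in WT.

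The peripheral stalk, which keeps the head from turning, was lower in 4 of 4 genes. Atp5o, the subunit that ties the stalk to the head, measured 272, 302 and 359 CPM in the libraries labelled dKO, against 423 and 535 CPM in WT (log2 fold change -0.62, SE 0.20, adjusted p = 0.436). Atp5f1, subunit b, measured 302, 249 and 298 CPM in the libraries labelled dKO, against 375 and 453 CPM in WT (log2 fold change -0.55, SE 0.19, adjusted p = 0.441). Atp5j had -0.43 with no overlap and Atp5h -0.24 with overlapping groups. Exons of Atp5f1 overlap those of Wdr77, and exons of Atp5j those of Gabpa, on the other strand in GENCODE M21. The small membrane subunits Atp5l, Atp5k and Atp5j2 had -0.61, -0.60 and -0.50, all without overlap in CPM. A transcript of Senp6 matches 245 bases of an Atp5l transcript at 96.7% identity, and Senp6 had 761 to 1267 counts a library, against 2463 to 7827 for Atp5l.

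Genes of the catalytic head had values on both sides of 0, some of them within the range of the stalk. Atp5b, the beta subunit that makes ATP, measured 1209, 1320 and 1094 CPM in the libraries labelled dKO, against 1257 and 1750 CPM in WT, and Atp5a1, the alpha subunit, 930, 999 and 951 CPM in the libraries labelled dKO, against 994 and 1269 CPM in WT. Their log2 fold changes were -0.32 and -0.24. The gamma subunit Atp5c1, which forms the rotating shaft, had -0.42 with groups that did not overlap, and the delta subunit Atp5d -0.09. Atp5e, the epsilon subunit at the foot of the shaft, measured 148, 157 and 171 CPM in the libraries labelled dKO, against 121 and 151 CPM in WT (log2 fold change 0.23, SE 0.20, adjusted p = 0.790). In TPM the groups of Atp5e did not overlap, with 637, 701 and 671 TPM in the libraries labelled dKO, against 484 and 511 TPM in WT. The ratio of Atp5e to Atp5a1, which does not depend on how libraries are scaled, was 0.847, 0.846 and 0.996 in the libraries labelled dKO, against 0.676 and 0.644 in WT. For Atp5c1 over Atp5a1 the order was the opposite, with 0.795, 0.657 and 0.990 in the libraries labelled dKO, against 1.05 and 1.03 in WT. For Atp5b over Atp5a1 the groups overlapped, with 1.51, 1.71 and 1.41 in the libraries labelled dKO, against 1.47 and 1.78 in WT. Those of Atp5d over Atp5a1 overlapped too, with 0.282, 0.395 and 0.265 in the libraries labelled dKO, against 0.301 and 0.335 in WT. Some subunits of the head thus kept their proportion to Atp5a1 and some did not. How often such ratios separate the groups over all genes was not computed.

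The 3 remaining Atp5 names are not structural subunits of the common enzyme. Atp5s, named Dmac2l by RefSeq, measured 40.04, 47.2 and 47.1 CPM in the libraries labelled dKO, against 41.6 and 36.3 CPM in WT (log2 fold change 0.20, SE 0.29, adjusted p = 0.896), and its TPM values were higher in the libraries labelled dKO without overlap. Atp5sl, named Dmac2 by RefSeq, had a log2 fold change of -0.19, and it was 0.24 on the scale of log2(TPM + 1). Without both the median of complex V was -0.50. Atp5l2 had 5, 4 and 4 counts in the libraries labelled dKO, against 2 and 10 in WT, and was not tested. RefSeq lists it as a pseudogene, and it matches Atp5l at 99.4% over 312 bases.

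Counts and TPM did not give the same picture for all members. On the scale of log2(TPM + 1), with limma, 39 of 46 members had lower values, against 39.7% of all tested genes, with a median of -0.28 while that of all genes was 0.14. Relative to all genes the distance was -0.42, against -0.54 with counts. In TPM the libraries labelled dKO lay below both WT libraries for 23 of 46 members, against 8.81% of all tested genes. They lay above for 3, namely Uqcrh, Atp5e and Atp5s, against 18.6% of all tested genes. By summed TPM, complex III held 4522, 4536 and 4771 in the libraries labelled dKO and 5202 and 6313 in WT, complex IV 7509, 6846 and 7491 against 8217 and 9691, and complex V 7714, 8451 and 8211 against 8920 and 10217.

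Transcripts encoded in the mitochondrion for the same complexes did not share the pattern as a set, and the libraries labelled dKO differed. Of 6 such genes 3 had lower and 3 higher values, the higher ones with log2 fold changes of 0.009, 0.05 and 0.14. In replicates 1, 2 and 3 labelled dKO, 4, 6 and 1 of the 6 lay below both WT libraries. Of all 13696 tested genes 4373, 5998 and 4938 did so. The catalytic subunit of complex IV, mt-Co1, measured 3478, 2876 and 5190 CPM in the libraries labelled dKO, against 3419 and 3547 CPM in WT (log2 fold change 0.14, SE 0.26, adjusted p = 0.924). The cytochrome b gene mt-Cytb of complex III had a log2 fold change of -0.29, with groups that overlapped. For mt-Atp6 the units disagreed, at 33.6, 29.2 and 66.1 CPM in the libraries labelled dKO, against 324 and 77.5 CPM in WT, while every library had between 0.955 and 1.85 TPM. Its log2 fold change from counts was -2.22 (SE 0.58, adjusted p = 0.430 by edgeR). This gene overlaps mt-Atp8 on the mitochondrial genome, so its counts are uncertain. Among Nduf-named genes of complex I, 39 of 41 tested were lower, and their median was -0.48.

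Genes that assemble or serve these complexes were taken as 10 lists. No gene of the lists passed edgeR's test. Among factors that assemble ATP synthase 6 of 6 had lower values, with a median log2 fold change of -0.48. One of these factors, spelled 5730437N04Rik in the files and Tmem242 in GENCODE M21, is known in human cells to help build the ring of subunit c. It measured 55.5, 51.8 and 50.8 CPM in the libraries labelled dKO, against 118 and 176 CPM in WT. The 3 libraries labelled dKO agreed closely and lay far below both WT libraries (log2 fold change -1.48, SE 0.25, adjusted p = 0.356 by edgeR). Next came 1110001J03Rik, named Fmc1 in GENCODE M21, at 48.5, 42.5 and 69.5 CPM in the libraries labelled dKO, against 72.4 and 100.1 CPM in WT.

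The other assembly lists were nearer to the median of all genes. Complex IV factors had 16 of 21 tested genes lower with a median of -0.24, led by Ccdc56, now Coa3, at 115, 112 and 143 CPM in the libraries labelled dKO, against 187 and 222 CPM in WT. Cox10, which takes part in making the haem of complex IV, had a log2 fold change of -0.44. Complex III factors had 5 of 6 lower with a median of -0.35, among them 2900010M23Rik, named Uqcc2 in GENCODE M21 (-0.52), and Uqcc (-0.35). Complex II factors had 3 of 4 lower with -0.12, and the 2 with the smallest p, Sdhaf2 (0.09) and Sdhaf1 (-0.17), lay on either side of 0. Exchange of ATP, ADP and phosphate across the inner and outer membranes had 8 of 9 lower with a median of -0.53. The adenine nucleotide carrier Slc25a5 measured 1017, 1485 and 1411 CPM in the libraries labelled dKO, against 1863 and 2475 CPM in WT (log2 fold change -0.73, SE 0.23, adjusted p = 0.436), and the outer membrane channel Vdac2 had -0.75.

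In the tricarboxylic acid cycle 12 of 14 enzymes had lower values with a median of -0.28, among them Idh3a (-0.85), the catalytic subunit of NAD-dependent isocitrate dehydrogenase, and Sucla2 (-0.66), a subunit of succinyl-CoA synthetase. Genes of cristae organisation had 7 of 9 lower with -0.46, led by Phb (-0.77), a prohibitin of the inner membrane, and Chchd3 (-0.62), a part of the complex that shapes cristae junctions. Coenzyme Q synthesis had 9 of 13 lower with -0.15, and it held members on both sides. Pdss1, which makes the side chain of coenzyme Q, had -1.20 and Adck3, now Coq8a, 1.22. Adck3 measured 150, 155 and 147 CPM in the libraries labelled dKO, against 90.0 and 39.6 CPM in WT.

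Cytochrome c handling and its cell death partners had 5 of 9 lower with a median of -0.36. Aifm1, an inner membrane flavoprotein that can be released in cell death, had a log2 fold change of -0.88. Regulators of respiratory genes did not go lower as a list, with 6 of 14 lower, 8 higher and a median of 0.11. The factor Nrf1 measured 71.1, 145 and 67.7 CPM in the libraries labelled dKO, against 89.6 and 70.8 CPM in WT, and Tfam, which packages and transcribes mitochondrial DNA, 81.3, 70.4 and 58.8 CPM in the libraries labelled dKO, against 71.3 and 83.9 CPM in WT. Gabpb2 had 1.25 and Ppargc1b 1.70, the smallest p-values of that list, with an SE of 0.45 and 1.01. Nrf1 and Tfam were chosen after their values were seen.

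**Figure D5:**
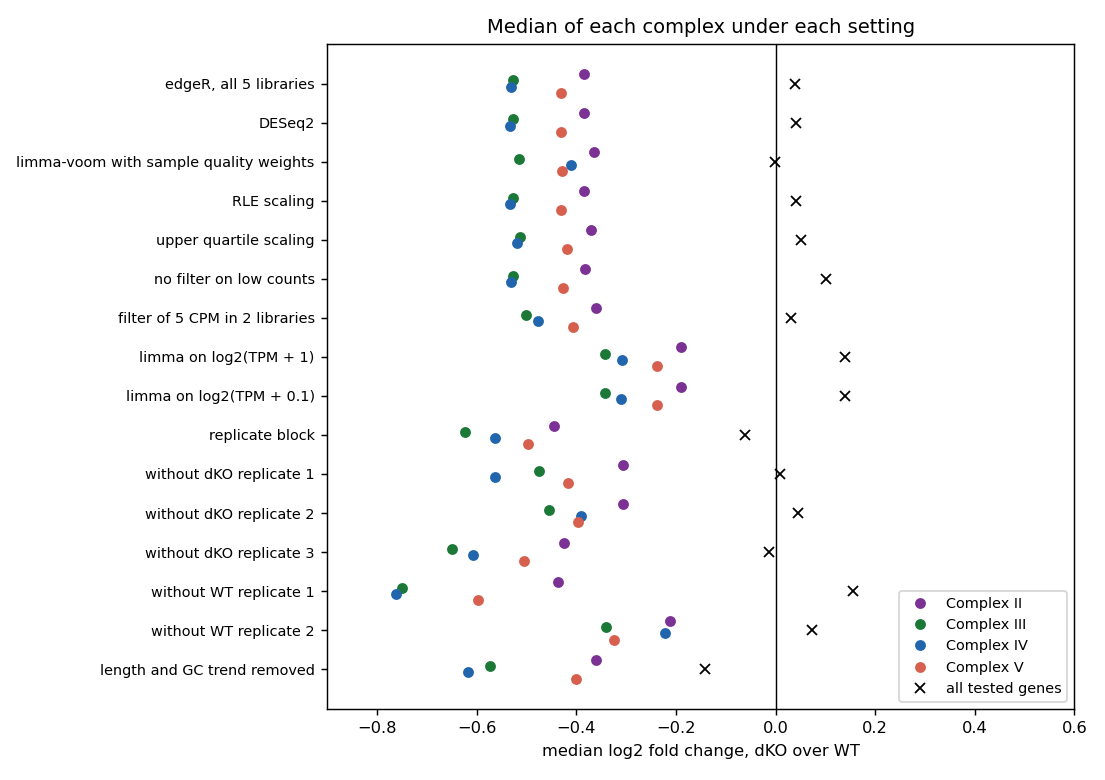
Median log2 fold change, libraries labelled dKO over WT, of the tested members of complexes II to V (coloured points) and of all tested genes (crosses) under each setting. Every coloured point lies left of 0 and left of the cross of its setting, and the median over all members minus that of all genes ranged from -0.84 without WT replicate 1 to -0.39 without WT replicate 2.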

How the data were processed

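Per the labels' protocols, RNA from 6K sorted cells per sample was made into Smart-seq2 libraries. The authors deposited raw counts per gene and TPM for each of 5 samples. Per the submitters' processing notes the build was mm9, and the tools named are RSEM 1.2.31, HTSeq, DESeq2, TopHat2 2.1.1, Trimmomatic and FastQC 0.11.5; no source used here says which of them made which values. Rows without a gene name (0.216% to 0.269% of counts) were left out.

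The deposited counts went into edgeR 4.0.16 (R 4.3.3; TMM, filterByExpr, robust quasi-likelihood fit, all 5 libraries, no covariate, Benjamini-Hochberg adjusted p under 0.05 over 13696 genes). The SE is the log2 fold change over the root of F. The code was checked on simulated counts. Libraries of a group differed beyond sampling noise (chi-square per degree of freedom 103 to 166). Similar transcripts were sought by blastn at 95% identity or more over 200 bases in GENCODE M21. Of the companion list entries 89 matched by symbol, 19 by identifier and 1 not. Adck3 and Adck4 were each entered under both an old and a new name, and each counts once in its list.

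Members, lists and tests were chosen with earlier results of these data known. Named in full were the 3 members with the smallest p per complex, Cycs, Cyc1, the Sdh and Atp5g genes, members with positive values, and the 2 genes with the smallest p per list, of which 1 is not reported here; others were named after their values were seen. Alternatives were DESeq2 1.42.0, limma 3.58.1, scalings, filters, TPM, a replicate block, a length and GC trend and each library left out.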

Additional observations from a re-analysis of the deposited data

How the results depend on the processing

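The direction of most values held: of 673 values of members other than Cycs under other settings 655 kept their sign and, where a p was computed, their side of the threshold, and 17 changed sign. The remaining 1 was Atp5g1, which passed the threshold with DESeq2 (adjusted p = 0.0382), as did Cycs (log2 fold change -1.15, adjusted p = 0.0336). Calls over all genes changed most with DESeq2, which made 154 calls of higher and 91 of lower expression and called 2 members. Without a filter on low counts edgeR made 5 and 3 calls, limma made 3 and 2 on log2(TPM + 1) and 2 and 0 on log2(TPM + 0.1), and leaving out a library gave 0 to 2 higher and 0 to 3 lower calls. Members lower with an unadjusted p under 0.05 numbered 12 with either TPM scale and 0 to 29 with a library left out, 0 being without WT replicate 2 and 29 without WT replicate 1. On the TPM scales limma also gave Atp5e, at 0.43 and 0.43 on the higher side, unadjusted p-values of 0.0249 and 0.0234 (adjusted p = 0.494 on both).

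With log2(TPM + 1) and log2(TPM + 0.1) the medians were -0.19 and -0.19 for complex II, -0.34 and -0.34 for complex III, -0.31 and -0.31 for complex IV, -0.24 and -0.24 for complex V, -0.29 and -0.30 for assembly of ATP synthase and -0.034 and -0.034 for the tricarboxylic acid cycle; with the first, that of ATP, ADP and phosphate exchange was -0.15. With the trend over transcript length and GC content removed, assembly of ATP synthase had -0.40 and the regulators -0.16. The median of all genes was itself -0.14 in that setting, so the regulators lay close to it. Leaving out each library gave medians from -0.44 to -0.21 for complex II, -0.75 to -0.34 for complex III, -0.76 to -0.22 for complex IV and -0.60 to -0.33 for complex V, in each case from without WT replicate 1 to without WT replicate 2. The same gave medians from -0.52 to -0.35 for assembly of ATP synthase, -0.53 to -0.20 for cristae organisation, -0.031 to 0.12 for the regulators and -0.44 to -0.18 for the tricarboxylic acid cycle.

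The sign of 6 members changed under some settings. On the 2 TPM scales Sdha had 0.073 and 0.073, Uqcrh 0.33 and 0.33, and Atp5sl 0.24 and 0.25; Uqcrh had 0.026 without the length and GC trend, and Cox7a2l -0.060 with limma-voom. With a library left out the ranges were -0.20 to 0.11 for Uqcrh, -0.36 to 0.027 for Atp5sl, -0.064 to 0.28 for Cox7a2l, -0.89 to 0.0038 for Sdhd and -1.69 to 1.55 for Cox7a1. The cause was not tested.

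Replicate numbers 1 and 2 occur in both groups, but the difference between them correlated at only 0.0442 between groups, over 2 pairs, so the numbers are not taken to pair the samples. With the replicate block the members' median was -0.53 with 43 of 46 lower, 1 gene was called higher and 0 lower, and Cox7a2l had -0.047.

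With 3 and 2 libraries, 1 of them shallow and apart, and a second WT library that sets much of the size of the differences, fold changes of single members carry wide intervals.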
